A study of Homo sapiens with 6 samples.

Results

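The 10 genes described here serve fatty acid uptake and activation. They are the long-chain acyl-CoA synthetases ACSL1, ACSL3, ACSL4, ACSL5 and ACSL6, the fatty acid transport proteins (FATPs) SLC27A1, SLC27A3 and SLC27A4, the membrane receptor CD36, and the cytosolic carrier FABP5. They were chosen by function and matched by symbol, and all 10 were found among the 63140 genes of the files. The cells were BT-549, a human triple negative breast cancer line labelled wild type (WT) and epithelial. PolyA RNA was read from 3 cultures in adipocyte conditioned medium (ACM) and 3 in unconditioned medium (UCM), all grown for 24 h without a transgene. ACM was medium kept on differentiating OP9 mouse cells, made with insulin, oleate and albumin. The treatment label gives 50% ACM, whereas the supplement of the paper describes undiluted ACM for RNA-seq. The formula of UCM is not stated, so oleate, insulin, serum and base medium cannot be told apart from adipocyte secretions. The comparison asked whether cells given this conditioned medium altered the mRNA of the proteins that take up and activate fatty acids.

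Long-chain fatty acids enter cells by diffusion and with the help of membrane proteins such as CD36 and the FATPs. Inside the cell they are carried by fatty acid binding proteins and joined to coenzyme A by ACSL enzymes, a step that consumes ATP and traps them in the cell. The resulting acyl-CoA is the substrate for triglyceride storage in lipid droplets, membrane phospholipid synthesis and β-oxidation. FATPs also have acyl-CoA synthetase activity, so that transport and activation are linked.

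Total expected counts ranged from 17135270 to 21053214 per library. Pairs of the 6 libraries correlated with r from 0.974 to 0.989 over the log2 CPM of tested genes. The mesenchymal genes VIM, FN1, ZEB1 and SNAI2 summed to between 2849 and 3463 TPM, most of it from VIM (2533 to 3151 TPM). FN1 had 172 to 279 TPM, ZEB1 15.9 to 27.5 TPM and SNAI2 26.0 to 37.9 TPM. The epithelial genes EPCAM, CDH1, KRT8, KRT18 and KRT19 summed to at most 2.21 TPM, against the epithelial label. Of the listed receptor genes low in triple negative cells, ESR1 and PGR had no count in any library. ERBB2, on the same list, had 25.45 to 32.43 TPM. Of 9 adipocyte markers, 4 (ADIPOQ, LEP, CIDEC and CIDEA) were at 0 in every library. The 9 summed to 4.10 to 6.55 TPM in ACM and 3.39 to 4.09 TPM in UCM, most of it from CFD, and LPL and FABP4 are also on the pathway list used below. Their part in the results was not tested. The replicate 1 libraries of both media correlated more with each other (Pearson r = 0.986) than with their own groups. UCM replicate 1 had r = 0.985 and 0.984 with UCM replicates 2 and 3, which had r = 0.989 with each other, and ACM replicate 1 had r = 0.985 with each of the other ACM libraries. Results that rest on these libraries are therefore also given without UCM replicate 1 and without replicate 1 of both media.

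BT-549 cells expressed these genes at very unequal levels. In TPM, which scales reads by transcript length and library total, the mean level of FABP5 was 88.7 ± 6.87 (SD, n = 3) in ACM and 121 ± 27.0 in UCM. ACSL4 followed with 75.4 ± 4.04 TPM in ACM and 89.5 ± 7.01 TPM in UCM. SLC27A4 averaged 45.7 ± 2.22 and 41.6 ± 1.87 TPM, ACSL3 32.8 ± 2.34 and 29.0 ± 2.15 TPM, and ACSL1 17.8 ± 2.10 and 21.1 ± 0.65 TPM. These 5 genes made up a well-expressed tier. SLC27A3 (6.39 ± 1.12 and 6.11 ± 1.04 TPM) and SLC27A1 (5.16 ± 0.52 and 4.73 ± 0.28 TPM) were lower. ACSL5 was low but detected, at 16 to 32 counts per library, while CD36 and ACSL6 were at or near the limit of detection. The order of the 10 means was the same in both media. The ranges of neighbours in that order overlapped only for FABP5 and ACSL4 in UCM, and for ACSL5 and CD36 in ACM.

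**Figure D1:**
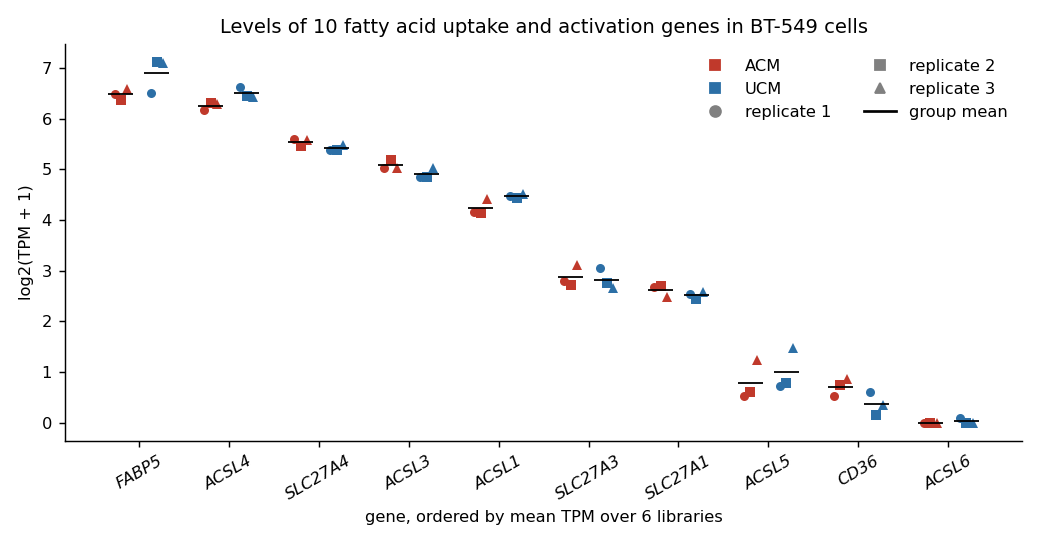
TPM of the 10 genes in each of the 6 libraries, as log2(TPM + 1) on the vertical axis, with ACM in red and UCM in blue, 1 marker per library and a line at each group mean of the plotted values. FABP5 and ACSL4 are highest and ACSL6 lies at 0 in every library but UCM replicate 1.

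To place these levels beside the genes' regulatory sequence, the 250 bases before the start site were read from RefSeq (GRCh38.p14) for the 9 members with an entry, at the start nearest the canonical GENCODE start. The 3 shown are ACSL4, the highest synthetase, ACSL6, with 2 counts in all, and CD36, with 55 counts in all, to compare well-expressed and nearly silent members. Capitals mark CpG dinucleotides.
ACSL4, chrX:109733258-109733507, minus strand: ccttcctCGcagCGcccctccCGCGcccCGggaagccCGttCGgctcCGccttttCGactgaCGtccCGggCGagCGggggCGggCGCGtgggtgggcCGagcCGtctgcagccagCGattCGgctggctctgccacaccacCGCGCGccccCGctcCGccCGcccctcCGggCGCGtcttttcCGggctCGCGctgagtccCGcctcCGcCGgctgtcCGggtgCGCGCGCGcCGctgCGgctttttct
ACSL6, chr5:132011659-132011908, minus strand: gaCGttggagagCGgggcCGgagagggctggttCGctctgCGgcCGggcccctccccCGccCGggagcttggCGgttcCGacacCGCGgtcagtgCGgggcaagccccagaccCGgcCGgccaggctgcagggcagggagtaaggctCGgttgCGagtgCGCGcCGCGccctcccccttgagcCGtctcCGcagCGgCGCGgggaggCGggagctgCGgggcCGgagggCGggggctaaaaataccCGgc
CD36, chr7:80638392-80638641, plus strand: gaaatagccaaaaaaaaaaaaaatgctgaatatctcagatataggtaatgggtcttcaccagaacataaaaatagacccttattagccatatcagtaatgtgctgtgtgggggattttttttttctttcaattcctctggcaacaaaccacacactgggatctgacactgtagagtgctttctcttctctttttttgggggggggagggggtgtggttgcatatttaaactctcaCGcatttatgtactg

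The ACSL4 segment held 42 CpG dinucleotides and the ACSL6 segment 31, against a median of 11 over 35116 promoter segments of the same length. CD36 held 1. SLC27A4, which has a single RefSeq start, also held 31. ACSL6 has 7 RefSeq starts, whose segments held 2 to 31 CpG dinucleotides, and the one shown has the most. The 6 starts of CD36 held 1 to 2. A GC box (GGGCGG, either strand) was found in 7 of the 9 segments, in all but ACSL5 and CD36, and in 42.6% of all segments. A sterol regulatory element (TCACNCCAC, either strand) was in none of the 9 and in 0.883% of all segments. The ACSL5 segment lies 1152 bases from the canonical GENCODE start, and the other 8 start at the same base in both annotations. A match of letters is a description and does not show a bound site.

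No member passed an adjusted p at or below 0.05 for ACM against UCM in edgeR's quasi-likelihood test, which tested 9 of the 10 (ACSL6 had too few counts). Over all 14451 genes tested, 3.35% were called higher and 2.21% lower. At an unadjusted p under 0.05 there were 4 members, ACSL3 with the higher level in ACM and ACSL1, ACSL4 and FABP5 with the lower, against 23.3% of all tested genes. DESeq2 and limma on log2 TPM also called 0 members. The estimated log2 FC had a median of 0.03 over the 9 members and -0.01 over all tested genes, and the median of its size without sign was 0.23 against 0.16. For 6 of the 9 members (ACSL1, ACSL3, ACSL4, SLC27A1, SLC27A3 and SLC27A4) the 95% interval lay within a 1.5-fold change in either direction. The intervals of ACSL5, CD36 and FABP5 reached past it. Since these are bulk samples, fewer cells with a transcript and less of it per cell cannot be told apart.

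**Figure D2:**
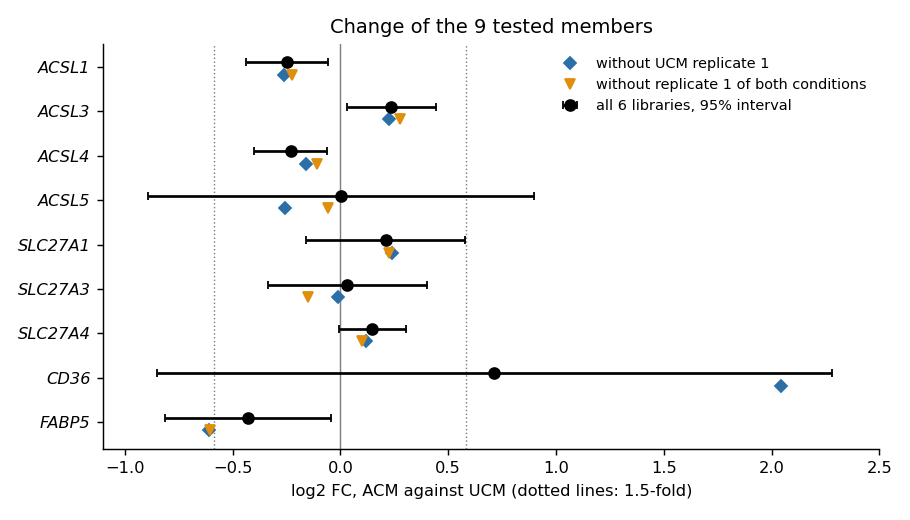
Log2 FC of ACM against UCM for the 9 tested genes, with 95% intervals from the fit of all 6 libraries (black), and the estimates without UCM replicate 1 (blue) and without replicate 1 of both media (orange; no value for CD36). ACSL1, ACSL4 and FABP5 lie left of 0 and ACSL3 right of it in all 3, and dotted lines mark a 1.5-fold change.

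ACSL4 (ENSG00000068366.21, GRCh38 chrX:109624244-109733403, minus strand, 16 exons in the canonical transcript) prefers arachidonic acid and other polyunsaturated fatty acids. Its level in CPM (counts scaled to library size by TMM) was 221, 249 and 240 in ACM, against 301, 270 and 260 in UCM. All ACM libraries lay below all UCM libraries, with UCM replicate 1 the highest. The log2 FC was -0.23 (SE 0.08), a 0.852-fold level, with an edgeR adjusted p of 0.106. Without UCM replicate 1 it was -0.16, and without replicate 1 of both media -0.11.

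ACSL3 (ENSG00000123983.15, chr2:222860942-222944639, plus strand, 17 exons) sits on the endoplasmic reticulum and on nascent lipid droplets, and serves their growth. Its CPM was 73.8, 90.5 and 73.0 in ACM and 65.2, 65.5 and 70.7 in UCM. Each ACM library exceeded each UCM library, although ACM replicate 3 and UCM replicate 3 were close and the groups overlapped in TPM. The log2 FC was 0.24 (SE 0.09, 1.18-fold) with an edgeR adjusted p of 0.159, and 0.13 without ACM replicate 2, the highest library.

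ACSL1 (ENSG00000151726.16, chr4:184755595-184826818, minus strand, 21 exons) is the main synthetase of fat, liver and heart. Its CPM was 36.0, 35.9 and 40.9 in ACM and 43.3, 43.7 and 46.9 in UCM, so the groups did not overlap. The log2 FC was -0.25 (SE 0.09, 0.843-fold), with an edgeR adjusted p of 0.119 (0.0632 to 0.396 over the alternatives). Groups did not overlap in CPM for 4 of the 9 tested members (ACSL1, ACSL3, ACSL4 and SLC27A4), against 29.0% of all tested genes.

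ACSL5 and ACSL6 added little. ACSL5 (ENSG00000197142.11, chr10:112374116-112428379, plus strand), a synthetase of the intestine and liver, had 19, 20 and 32 counts in the ACM libraries and 16, 29 and 25 in those of UCM. Its log2 FC was 0.00 (SE 0.40), and the 95% interval from -0.89 to 0.90 leaves a change of up to 1.86-fold undetectable at this depth. ACSL6 (ENSG00000164398.15, chr5:131949973-132012243, minus strand), a brain synthetase, had 2 counts in UCM replicate 1 and 0 in the other 5 libraries. A count of 0 allows up to 3 counts, or 0.143 to 0.175 CPM across those libraries, for counting error only.

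**Figure D3:**
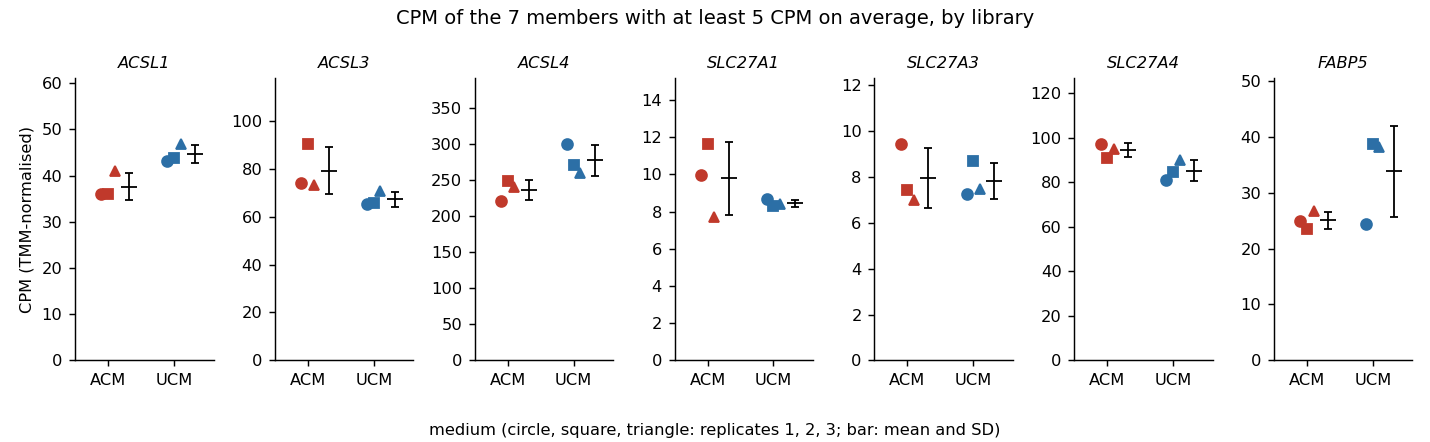
CPM of the 7 members averaging at least 5 CPM, 1 panel per gene with its own vertical axis from 0, by medium, with 1 marker per library and the mean and SD (n = 3) at the side. Groups are apart for ACSL1, ACSL3, ACSL4 and SLC27A4, and UCM replicate 1 of FABP5 lies among the ACM libraries.

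The make-up of the ACSL family was compared within each library, as each member's percent of the summed ACSL TPM. ACSL4 accounted for 59.2%, 59.8% and 59.3% in ACM and 66.3%, 63.8% and 60.6% in UCM. ACSL3 accounted for 26.4%, 27.2% and 24.1% in ACM and 18.9%, 20.5% and 22.6% in UCM. Thus the ACSL4 share was lower and the ACSL3 share higher in every ACM library than in every UCM library. The mean differences were -4.13 percentage points for ACSL4 and 5.26 for ACSL3. The exact two-sided permutation p was 0.1 for each, the smallest that 3 against 3 can give, so the design cannot reach 0.05. Adjusting over the 5 shares would raise this p. Without UCM replicate 1 the mean differences were -2.77 percentage points for ACSL4 and 4.38 for ACSL3. Shares without replicate 1 of both media were not computed. The TPM of ACSL4 was 2.30 ± 0.14 (SD, n = 3) times that of ACSL3 in ACM and 3.10 ± 0.41 times in UCM. The ACSL1 share overlapped between media (12.6% to 15.6% and 14.3% to 15.6%). Summed ACSL TPM was 127 ± 6.34 in ACM and 141 ± 5.96 in UCM (exact permutation p = 0.1).

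**Figure D4:**
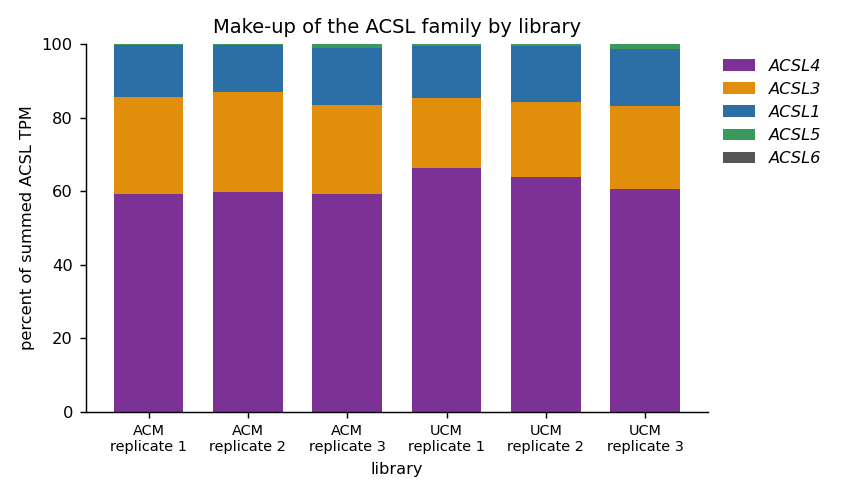
Percent of the summed ACSL TPM held by each of the 5 members, stacked, for the 3 ACM and 3 UCM libraries. The ACSL4 part spans 59.2% to 59.8% in ACM and 60.6% to 66.3% in UCM, and the ACSL3 part is larger in ACM.

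Among the 3 member FATPs, SLC27A4 (FATP4, ENSG00000167114.13, chr9:128340527-128361470, plus strand, 13 exons), a very-long-chain acyl-CoA synthetase of the endoplasmic reticulum that drives uptake, was the most abundant. Its CPM was 97.5, 91.0 and 95.1 in ACM and 81.0, 84.8 and 90.3 in UCM. Both groups were adjacent but did not overlap, whereas they overlapped in TPM. The log2 FC was 0.15 (SE 0.07), with an edgeR adjusted p of 0.241.

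SLC27A1 (FATP1, ENSG00000130304.17, chr19:17468769-17506168, plus strand), the insulin-responsive transporter of muscle and fat, had 9.98, 11.7 and 7.72 CPM in ACM and 8.67, 8.28 and 8.40 CPM in UCM. ACM libraries lay on both sides of UCM libraries (log2 FC 0.21, SE 0.17, edgeR adjusted p = 0.494). The log2 FC was 0.068 without ACM replicate 2, the highest library, and 0.35 without ACM replicate 3, the lowest. SLC27A3 (FATP3, ENSG00000143554.14, chr1:153774354-153780157, plus strand), known mainly for synthetase activity, had 9.46, 7.43 and 7.01 CPM in ACM and 7.25, 8.71 and 7.46 CPM in UCM. Its groups overlapped fully (log2 FC 0.03, SE 0.17, edgeR adjusted p = 0.934). The summed TPM of the 3 FATPs was 57.2 ± 2.62 in ACM and 52.5 ± 1.67 in UCM (exact permutation p = 0.1).

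CD36 (ENSG00000135218.19, chr7:80369575-80679277, plus strand), the scavenger receptor that binds long-chain fatty acids at the surface of fat, muscle and macrophages, was barely transcribed. The ACM libraries held 14, 15 and 5 counts, and the UCM libraries 16, 3 and 2. In CPM, which is scaled for depth, these were 0.665, 0.845 and 0.272 in ACM against 0.758, 0.161 and 0.117 in UCM. ACM replicate 2 was the highest, and UCM replicate 1 lay among the ACM libraries, so the groups overlapped. The log2 FC of 0.71 (SE 0.70, edgeR adjusted p = 0.597) had a 95% interval from -0.85 to 2.28, and it was 2.04 without UCM replicate 1 (adjusted p = 0.124). No difference was detectable at this depth.

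FABP5 (ENSG00000164687.11, chr8:81280536-81284777, plus strand, 4 exons), the epidermal fatty acid binding protein, carries fatty acids through the cytosol and into the nucleus. Its CPM was 25.0, 23.5 and 26.6 in ACM and 24.4, 38.8 and 38.1 in UCM. UCM replicates 2 and 3 were far above every ACM library, while UCM replicate 1 lay among the ACM libraries. Over all 6 libraries the log2 FC was -0.43 (SE 0.17), with an edgeR adjusted p of 0.170. Without UCM replicate 1 it was -0.61 with an adjusted p of 0.00387, and without replicate 1 of both media -0.60 with an adjusted p of 0.00545, so the call turned on that library. It also turned on the filter, since with all genes of at least 1 count in total the adjusted p was 0.00294. Calls over all genes also rose in these fits, from 484 higher and 320 lower in the main fit. They were 738 and 572 without UCM replicate 1, 1017 and 726 without replicate 1 of both media, and 1045 and 679 with that filter. Of 15 FABP5 pseudogenes listed, 2 had any count, 3.05 in sum over the 6 libraries, against 1433 counts in ACM and 1891 in UCM for FABP5 itself.

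For some members the level in TPM depended on the length assigned to the gene as well as on its reads. The effective length, a mean over transcripts weighted by their abundance in a library, varied by at most 1.10-fold between libraries for ACSL1, ACSL3, ACSL4, SLC27A4 and FABP5. It ran from 1324 to 2238 bases for SLC27A3, from 1164 to 3063 for ACSL5 and from 487 to 2193 for CD36. ACSL5 shows the effect. Its TPM was 0.43, 0.52 and 1.35 in ACM and 0.66, 0.72 and 1.79 in UCM. Its highest values were those of replicate 3 in each medium, and ACM replicate 3 and UCM replicate 3 had 2 of the 3 shortest lengths. With effective lengths as offsets its log2 FC was -0.41 in place of 0.00.

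Genes around these members were taken from a list of 59 other genes of fatty acid uptake, binding, activation and acyl-CoA handling. Of these, 30 were tested, 19 had no count in any library, and at the adjusted p 1 rose and 2 fell, against 3.35% higher and 2.21% lower over all tested genes. At an unadjusted p under 0.05 there were 10, against 23.3% of all tested genes. The median log2 FC of the 30 was 0.01, against -0.01 over all tested genes.

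VLDLR, the receptor that brings triglyceride-rich lipoproteins to the cell for uptake of their fatty acids, was the gene that rose. Its CPM was 76.8, 97.9 and 75.3 in ACM and 48.7, 50.7 and 45.4 in UCM, with every ACM library well above every UCM library. The log2 FC was 0.79 (SE 0.11, edgeR adjusted p = 0.00401), and it passed in all 15 alternative fits. The other abundant partners, by mean TPM the caveolar CAV1 (741) and CAVIN1 (468), the mitochondrial aminotransferase GOT2 (144) and the depalmitoylase LYPLA1 (121), had log2 FC of 0.08, -0.31, -0.10 and -0.14, and none passed.

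The genes that fell were ACSS2 and AACS, synthetases of short rather than long chains. ACSS2 makes acetyl-CoA from acetate, and its CPM was 11.2, 13.0 and 11.9 in ACM and 20.2, 29.4 and 27.4 in UCM. Both groups were far apart, with a log2 FC of -1.09 (SE 0.15, edgeR adjusted p = 0.00377). On the TPM scale the groups overlapped, and ACM replicate 2 had an effective length of 911 bases against 1633 to 2150 in the other libraries. With effective lengths as offsets the log2 FC was -0.48 (adjusted p = 0.398). AACS, which activates acetoacetate for lipid synthesis, had 16.0, 13.0 and 12.0 CPM in ACM and 20.3, 19.7 and 24.5 CPM in UCM. Its log2 FC was -0.65 (SE 0.14, edgeR adjusted p = 0.0254). The call was lost without ACM replicate 2 (0.104), ACM replicate 3 (0.0759), UCM replicate 2 (0.0641) or UCM replicate 3 (0.120), all adjusted p, and with effective lengths as offsets (0.104). ACSF3 (16.6 TPM on average), ACSF2 (5.66 TPM) and ACSS1 (2.32 TPM), the other tested synthetases of this group, had log2 FC of -0.02, 0.24 and 0.53 and did not pass.

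None of the other FATPs, fatty acid binding proteins, acyl-CoA thioesterases or acyl-CoA binding proteins passed. Among FATPs outside the 10 genes, SLC27A5 was the one tested (29.4 TPM on average, log2 FC 0.07). None of the 9 other fatty acid binding proteins was tested, 6 had no count, and the highest was FABP3 at 0.753 TPM on average, so FABP5 was the only well-expressed carrier of the family. The thioesterases, which release fatty acids from acyl-CoA, were led by ACOT7 (176 TPM, log2 FC 0.02), ACOT9 (67.8 TPM, 0.01), ACOT2 (63.5 TPM, 0.17) and ACOT8 (56.2 TPM, 0.28). ACOT1 and ACOT2 are near-identical copies, so the split of reads between them is uncertain. DBI, the main acyl-CoA binding protein, had the highest mean TPM of its group (302) and a log2 FC of -0.32 (SE 0.09, edgeR adjusted p = 0.0604). ACBD6, ACBD3 and ACBD5 followed by level, with log2 FC of -0.15, 0.05 and 0.03.

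**Figure D5:**
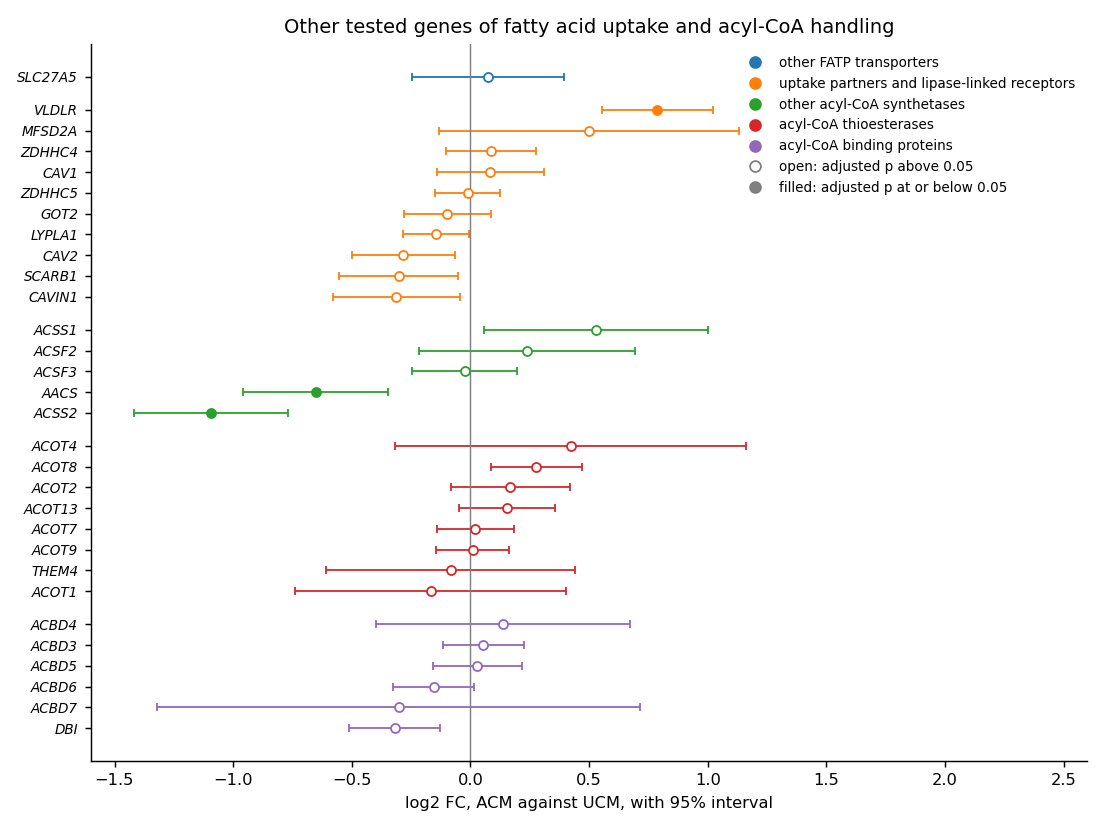
Log2 FC of ACM against UCM with 95% intervals for the 30 tested genes of the surrounding list, coloured by sublist, with filled markers for an adjusted p at or below 0.05. VLDLR lies to the right, ACSS2 and AACS lie to the left, and the markers of the other genes are open.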

How the data were processed

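RNA of BT-549 cells was measured in 3 ACM and 3 UCM libraries. Libraries were made from polyA RNA and sequenced paired-end, and the submitters' processing notes name Trim Galore, STAR and RSEM with GRCh38. Versions are not given in the sources used here. The authors deposited RSEM expected counts, not scaled for depth, and TPM, scaled by effective length and library sum. A deposited table of the authors' own DESeq2 fold changes and p-values was not used.

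After rounding, ACM was tested against UCM with edgeR 4.0.16 under R 4.3.3 (TMM, filterByExpr, robust quasi-likelihood, medium as the only term), with Benjamini-Hochberg adjustment over all 14451 genes tested, and the fit was tested on simulated data. CPM used the TMM-scaled library sizes. Nothing in the labels says how far the cultures were independent, so p-values measure only the spread between these libraries, with a coefficient of biological variation of 0.115. Identifiers of 61547 of 63140 genes matched GENCODE 44 with their versions. Alternatives used DESeq2 1.42.0, RLE size factors, other filters, effective-length offsets, limma 3.58.1 on log2 TPM, a replicate block, and each library left out. A fit without replicate 1 of both media was added after seeing the data.

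The members, the lists and the alternatives were chosen with earlier results of these data known. The genes named were the 10 members, every gene of the pathway list that passed the adjusted p, and up to 4 of the highest by TPM in each of its groups. The rule also asked for the genes most like a member that passed, and none did. CAV2 and SCARB1 were named after their values were seen.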

Additional observations from a re-analysis of the deposited data

How the results depend on the processing

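In all 15 alternative fits no member was called higher, and ACSL1, ACSL3, ACSL4, SLC27A1, SLC27A4 and FABP5 kept their direction, as did CD36 in the 13 in which it was tested. With a filter of at least 1 count in total, 1 member was called lower, FABP5 (adjusted p = 0.00294), as without replicate 1 of both media (1). Leaving out each library gave 0 to 1 members called lower. The log2 FC of ACSL5 turned to -0.41 with effective-length offsets, -0.21 and -0.44 with limma on log2(TPM + 1) and log2(TPM + 0.1), and -0.058 without replicate 1 of both media, and ran from -0.30 to 0.21 with each library left out. That of SLC27A3 ran from -0.10 to 0.12 with each library left out and was -0.15 without replicate 1 of both media. For all of these the cause was not tested.

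In the surrounding list 6 genes were called lower with the filter of at least 1 count, 0 with offsets or either limma fit, 5 without replicate 1 of both media (DBI, CAV2 and SCARB1 with ACSS2 and AACS), and 1 to 5 with each library left out. Over all genes, 484 were called higher and 320 lower. These became 1045 and 679 with the filter of at least 1 count, 272 and 134 with offsets, 230 and 132 with limma on log2(TPM + 1), 234 and 138 on log2(TPM + 0.1), 1017 and 726 without replicate 1 of both media, and 125 to 738 and 62 to 572 with each library left out. The upper ends of both ranges, 738 and 572, came without UCM replicate 1. No scaling moved the median of all genes by over 0.1.

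Libraries that share a replicate number deviated from their group means with r = 0.318, 0.035 and 0.177. ACM and UCM libraries of unlike number had r from -0.314 to 0.196, positive only for ACM replicate 3 with UCM replicate 2. These values do not exclude that equal numbers were pairs. The labels do not call them pairs, so the main fit had no such term. With the replicate block 909 genes were called higher and 703 lower, 4 genes of the surrounding list were called lower, and 0 members were called. The differences in the ACSL1, ACSL3 and ACSL4 shares kept their direction in every alternative. That of ACSL6 was 0 without UCM replicate 1. That of ACSL5 changed sign, from -0.156 percentage points to 0.043 with shares of CPM per mean effective length and 0.108 without UCM replicate 3. Both moves were less than 1 SD. Depth limits ACSL5, ACSL6 and CD36 most.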
